A study of Mus musculus with 15 samples.

Results

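The growth hormone and IGF axis was followed through 10 genes chosen by symbol for their roles in it, Ghr, Igf1, Igf1r, Igfbp1, Igfbp2, Igfbp3, Igfbp4, Igfals, Socs2 and Stat5b, out of 23589 loci with a gene name. Each of the 10 symbols was matched by name, and they lie on 11 loci because Igf1 also has a second locus on the minus strand. The 5 tissues of male C57BL/6 mice that were sequenced were hippocampus, hypothalamus, liver, colon (as intestinal mucosa) and epididymal fat. Mice of the AL group were fed ad libitum and killed at 5 months of age. Mice of the DR group were given 60% of the AL intake from 4 months of age for 1 month and were also killed at 5 months. Mice of the DR-AL group had the same 1 month of DR, then 2 months of AL feeding, and were killed at 7 months, so diet and age cannot be told apart in DR-AL. Each of the 15 libraries was made from the pooled RNA of 5 mice, with 1 library per tissue and diet, and no difference between diets within a tissue has a replicate check.

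Growth hormone from the pituitary binds its receptor, Ghr, on liver and fat. The receptor acts through the kinase Jak2 and the transcription factor Stat5b, which turns on Igf1, Igfals and the feedback inhibitor Socs2. IGF-1 made in the liver circulates bound to Igfbp3 and the acid-labile subunit Igfals, while the smaller binding proteins Igfbp1, Igfbp2 and Igfbp4 carry it outside that complex. Igfbp1 is repressed by insulin and Igf1 is known to be sensitive to food intake.

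Counts were scaled to CPM, counts per 1000000 counts on named loci, and these counts numbered between 21767088 and 40500130 per library with a median of 26554699. A count of 0 allows up to 3 counts, which is between 0.0741 and 0.138 CPM. Each pair of diets within a tissue was compared by the Z test of the study's methods, which compares 2 libraries and takes only counting error into account. A gene was called at a Benjamini-Hochberg adjusted p under 0.05 with a log2 fold change of at least 0.32 in size, and intervals of log2 fold changes are 95% counting intervals. In bulk tissue, fewer cells of a type and less RNA per cell cannot be told apart.

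The tissue labels were checked against marker genes. Hepatocyte markers summed to between 84856 and 88719 CPM in the liver, although Alb, the albumin gene, was listed at 0 in every library. Adipocyte markers summed to between 34744 and 57886 CPM in fat, and colon epithelium markers to between 35505 and 35802 CPM in the colon. The hypothalamus held between 916 and 1209 CPM of hypothalamic markers. The hippocampus held between 895 and 1006 CPM of hippocampal markers, a sum that the colon nearly reached through Dsp alone. The 3 fat libraries stood apart. The AL fat library held hepatocyte markers at a median of 15.6% of their level in the AL liver, the DR fat library at 0.139% and the DR-AL fat library at 0.0213%. Germ cell markers of the testis rose the other way in fat, from 5.26 CPM in AL to 585 CPM in DR and 2826 CPM in DR-AL. The sum of epididymal markers went from 918 CPM to 3395 CPM and 5480 CPM. Against AL, 8 of 8 epididymal markers were called higher in DR and 6 of 8 in DR-AL. Between DR-AL and DR, 4 of them were higher and 4 lower. Counts over the tissues are therefore also given without fat.

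The promoter letters of 2 members with liver-centred levels are shown because they hold motifs of the axis. The windows are the 250 bases before the RefSeq start on GRCm38.p6, and capitals mark the motif. The motif CAAAACA, a form of the site bound by the insulin-repressed FoxO factors, was searched on both strands, as was TTCNNNGAA, the spaced palindrome bound by STAT5, whose strands coincide.
Igfbp1 promoter, chr11:7197537-7197786, plus strand: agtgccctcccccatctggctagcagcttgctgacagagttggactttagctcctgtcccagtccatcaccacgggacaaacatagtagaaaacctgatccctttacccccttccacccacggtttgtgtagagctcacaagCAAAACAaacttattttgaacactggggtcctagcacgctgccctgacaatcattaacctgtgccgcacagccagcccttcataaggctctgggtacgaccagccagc
Igfals promoter, chr17:24877594-24877843, plus strand: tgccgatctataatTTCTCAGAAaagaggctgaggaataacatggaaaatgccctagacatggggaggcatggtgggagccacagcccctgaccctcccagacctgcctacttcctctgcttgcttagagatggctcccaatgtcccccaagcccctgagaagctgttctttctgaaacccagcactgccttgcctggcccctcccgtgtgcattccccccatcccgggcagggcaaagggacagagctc
The Igfbp1 motif lies between bases -108 and -102 from the start, and CAAAACA is found in 5.56% of 32851 promoter windows of the same length. The Igfals motif lies between bases -236 and -228, and TTCNNNGAA is found in 7.02% of the windows. A second Igfals window holds another match between bases -58 and -50, and a further Igfals window holds none. Of the 14 windows of members, 1 held CAAAACA and 2 held TTCNNNGAA, beside 5.56% and 7.02% of all windows. The other members matched, 9 of 10 in 14 windows in all, had neither motif in these letters, and Socs2 had no entry.

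The levels of most members spanned a wider range between tissues than between diets. In the edgeR quasi-likelihood fit over the 15 libraries, with tissue and diet as terms and TMM scaling, all 10 members differed between the liver and the mean of the 4 other tissues at an adjusted p under 0.05. Of these, 9 were higher in the liver, against 33.6% of 17476 genes tested, and 1 was lower, against 41.0%. The replicates of a tissue in this fit are its 3 diets, and the tissues were taken from the same animals.

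**Figure D1:**
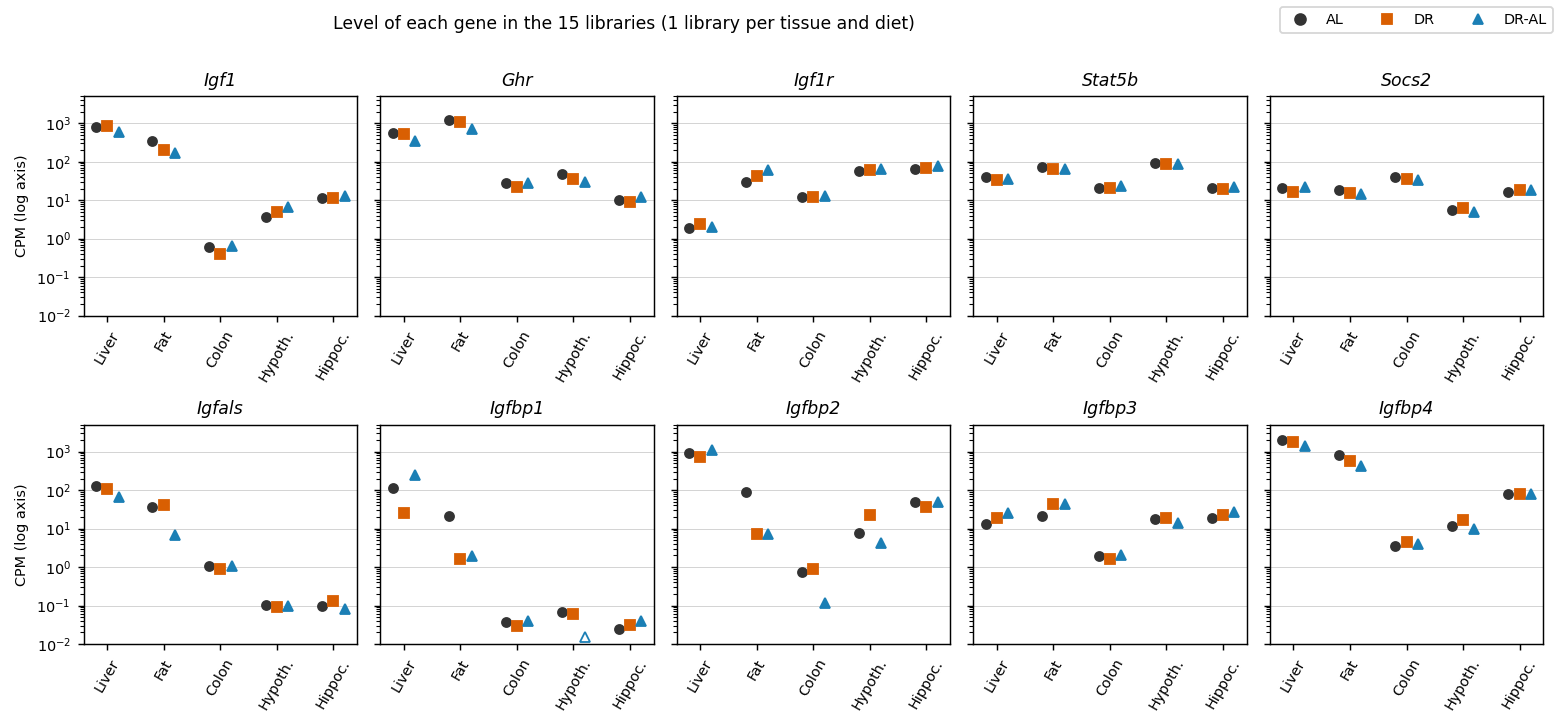
CPM (log axis) of the 10 genes in the 5 tissues, 1 point per library, with AL as circles, DR as squares and DR-AL as triangles. An open symbol at the foot of a panel is a library at 0 counts. Apart from Igfbp1 in the hypothalamus, read at 0 to 2 counts, the diets of a tissue lie farthest apart for Igfbp1 in liver (25.8 to 247 CPM) and fat (1.66 to 21.1 CPM), Igfbp2 in fat (7.09 to 90.7 CPM), hypothalamus (4.17 to 22.5 CPM) and colon (0.120 to 0.898 CPM) and Igfals in fat (7.02 to 40.3 CPM), while levels of Igf1, Igfbp1, Igfbp2, Igfbp4 and Igfals fall by orders of magnitude from the liver to the colon or brain.

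The ligand, Igf1 (chromosome 10, 87858265 to 87937042, plus strand, GRCm38), was the most liver-centred of the signalling members. Igf1 averaged 740 ± 140 CPM in the liver, 241 ± 99.7 CPM in fat, 12 ± 0.729 CPM in the hippocampus, 5.14 ± 1.57 CPM in the hypothalamus and 0.543 ± 0.135 CPM in the colon (SD over the 3 diets, n = 3). None of these neighbours in the order overlapped between libraries. The 3 genes whose pattern over the 15 libraries was most like that of Igf1, by Pearson correlation of log2 CPM among 14089 genes, were Trf (r = 0.9915), Cp (r = 0.985) and the member Igfbp4 (r = 0.984). Trf and Cp encode the plasma proteins transferrin and ceruloplasmin.

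The receptors had different distributions. Ghr (chromosome 15, 3317760 to 3583492, minus strand) was highest in fat at 1011 ± 276 CPM, followed by the liver at 468 ± 115 CPM, the hypothalamus at 37.9 ± 9.72 CPM, the colon at 26.1 ± 3.44 CPM and the hippocampus at 10.3 ± 1.47 CPM. Every neighbour in that order stood apart. Igf1r (chromosome 7, 67952827 to 68233668, plus strand) was highest in the hippocampus at 69.4 ± 5.12 CPM and the hypothalamus at 60.7 ± 4.31 CPM, and the fat libraries, at 45.0 ± 16.5 CPM, overlapped those of the hypothalamus. The liver held the least Igf1r, 2.09 ± 0.217 CPM on between 48 and 51 counts. Igf1r was the 1 member lower in the liver than in the other tissues, with a log2 difference of -3.18 (edgeR quasi-likelihood, adjusted p = 1.1e-08). The tissue with the most Igf1 RNA therefore held the least Igf1r RNA.

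The transducer Stat5b (chromosome 11, 100780731 to 100850724, minus strand) and the inhibitor Socs2 (chromosome 10, 95385362 to 95417180, minus strand) were the most evenly spread members. Stat5b ranged from 20.7 ± 1.36 CPM in the hippocampus, overlapping the colon at 21.5 ± 1.34 CPM, to 89.3 ± 4.23 CPM in the hypothalamus. Socs2 ranged from 5.67 ± 0.755 CPM in the hypothalamus to 36.4 ± 3.44 CPM in the colon, and the libraries of liver, hippocampus and fat overlapped their neighbours in between. The call of Stat5b as higher in the liver depended on the scaling, with a log2 difference of 0.92 under TMM and -0.11 under library totals, since the scaling moved the median of all genes from -0.33 to -1.36. The 8 other members higher in the liver kept their direction and their call under library totals.

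Of the binding proteins, 3 were highest in the liver. Igfbp4 (chromosome 11, 99041244 to 99054392, plus strand) averaged 1713 ± 259 CPM in the liver, 598 ± 194 CPM in fat and 79.5 ± 0.322 CPM in the hippocampus. Igfbp2 (chromosome 1, 72824503 to 72852474, plus strand) averaged 922 ± 181 CPM in the liver and 44.7 ± 6.57 CPM in the hippocampus. Igfbp1 (chromosome 11, 7197782 to 7202546, plus strand) averaged 128 ± 112 CPM in the liver and 8.23 ± 11.2 CPM in fat, and had at most 2 counts in each colon and brain library. Igfbp1 was thus read in liver and fat alone at this depth. Igfals (chromosome 17, 24865997 to 24882010, plus strand) averaged 100.6 ± 33.5 CPM in the liver, 28.3 ± 18.5 CPM in fat and 0.999 ± 0.117 CPM in the colon, with at most 4 counts in a brain library. Igfbp3 (chromosome 11, 7206086 to 7213923, minus strand) broke the pattern, since fat at 36.6 ± 13.4 CPM, hippocampus at 22.8 ± 3.84 CPM, liver at 18.9 ± 5.64 CPM and hypothalamus at 16.7 ± 2.34 CPM each overlapped the next. The gene for the binding protein and that for the acid-labile subunit of the circulating complex therefore had different tissue distributions.

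The gene most like Igfbp1 over the 15 libraries was G6pc (r = 0.990), the glucose-6-phosphatase of gluconeogenesis. The genes most like Igfbp3 after Aasdhppt (r = 0.984) were Tyrobp (r = 0.977) and C1qa (r = 0.975), which are expressed by macrophages and microglia. Socs2 was most like Tbc1d8b (r = 0.958), Stat5b most like Hemk1 (r = 0.963), Ghr most like Nlrc5 (r = 0.993) and Igf1r most like Wnk1 (r = 0.9935). These correlations rest mostly on the 5 tissue levels and on libraries of different depth, and are given as descriptions.

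Per transcript length, FPKM placed Igfbp4 first in the AL liver at 2427 FPKM, then Igfbp2 at 1906 FPKM, Ghr at 503 FPKM and Igf1 at 345 FPKM, with Igf1r last at 0.422 FPKM. In the AL hippocampus, Igfbp4 at 33.4 FPKM and Igfbp2 at 32.6 FPKM were followed by Igfbp3 at 6.76 FPKM, and Igf1 at 1.30 FPKM lay above only Igfals and Igfbp1. In the colon, Socs2 came first in each diet and in fat Ghr did.

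The 2 brain regions differed in 6 of the 10 members (edgeR quasi-likelihood, adjusted p under 0.05). Of these, 2 were higher in the hypothalamus, against 15.5% of all genes tested, and 4 were lower there, against 15.3%. Stat5b, with a log2 difference of 1.86 (adjusted p = 5.6e-06), and Ghr, at 1.60 (adjusted p = 8.0e-04), were higher in the hypothalamus. Igfbp4 at -2.93 (adjusted p = 5.3e-05), Socs2 at -1.89 (adjusted p = 4.7e-05), Igf1 at -1.45 (adjusted p = 0.0092) and Igf1r at -0.44 (adjusted p = 0.034) were higher in the hippocampus. The call of Igf1r was lost with library totals (adjusted p = 0.44). Igfbp2, at -2.35 (adjusted p = 0.091), and Igfbp3, at -0.66 (adjusted p = 0.050), did not pass, and both were called by DESeq2 and without the fat libraries.

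Between the DR and AL libraries, the Z test called 15 of the 50 combinations of member and tissue, 6 higher and 9 lower in DR. With DESeq size factors it called 19, 4 of them higher and 15 lower. All genes under those size factors had 2439 calls higher and 2381 lower in the liver, and 5342 and 3383 in fat. They had 808 and 544 in the hypothalamus, 1646 and 1939 in the colon, and 262 and 491 in the hippocampus. With library totals and without fat, 9 of the 15 calls remained, 4 higher and 5 lower. The shares that follow are for library totals, with 3140 genes higher and 1727 lower in the liver, and 7183 and 2113 in fat. In the liver 1 member was higher, against 18.0% of 17408 genes tested, and 2 were lower, against 9.92%. In fat 2 were higher, against 35.2% of 20382 genes, and 4 lower, against 10.4%. The hypothalamus had 3 higher, against 4.33% of 19320 genes, and 1 lower, against 2.72%. The colon had 0 higher, against 9.04% of 18242 genes, and 1 lower, against 10.6%, and the hippocampus 0 higher, against 1.36% of 18804 genes, and 1 lower, against 2.67%.

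Between the DR-AL and AL libraries, 20 of the 50 combinations were called, 6 higher and 14 lower, and 12 without fat. The liver had 2 higher, against 15% of all genes, and 4 lower, against 15.8%. Fat had 2 higher, against 46.0%, and 6 lower, against 11.9%. The hypothalamus had 1 higher, against 6.06%, and 3 lower, against 9.02%. The colon had 0 higher, against 5.83%, and 1 lower, against 8.50%, and the hippocampus 1 higher, against 3.99%, and 0 lower, against 2.16%.

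Between the DR-AL and DR libraries, 20 were called, 9 higher and 11 lower in DR-AL, and 16 without fat. The liver had 4 higher, against 16.9%, and 3 lower, against 24.0%. Fat had 1 higher, against 38.3%, and 3 lower, against 13.3%. The hypothalamus had 1 higher, against 2.82%, and 4 lower, against 6.80%. The colon had 1 higher, against 6.78%, and 1 lower, against 7.67%, and the hippocampus 2 higher, against 3.63%, and 0 lower, against 1.26%. With a fold of at least 2, the 3 comparisons had 5, 9 and 4 calls, against 8.57%, 10.8% and 10.4% of all combinations of gene and tissue. The 3 comparisons of a tissue share libraries, so their calls are not independent.

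**Figure D2:**
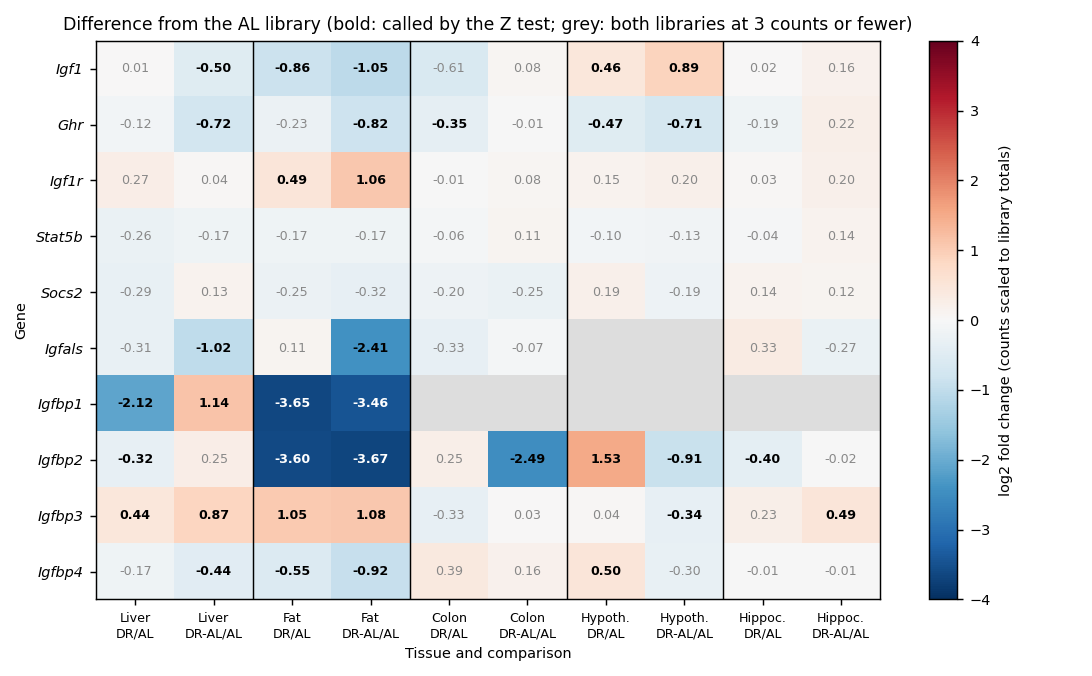
Log2 fold change of each gene (rows) in DR and in DR-AL against the AL library of each tissue (columns), with red for higher and blue for lower, bold values called by the Z test, and grey cells where both libraries held 3 counts or fewer. Igfbp1 in the liver was lower in DR (-2.12) and higher in DR-AL (1.14), Stat5b and Socs2 were not called in any cell, and the hippocampal columns hold 1 called value each.

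No member changed over the tissues in any diet comparison in the shared edgeR fit, in which a diet effect has to hold across the 5 tissues. The smallest adjusted p among members was 0.85. At an unadjusted p under 0.05, Igfbp1 and Stat5b passed for DR against AL, Ghr, Igf1r and Igfals for DR-AL against AL, and Igfbp1 and Igfals for DR-AL against DR. DESeq2 also called 0 members. Of all 17476 genes, edgeR called 2 (0.0114%), 1 (0.00572%) and 2 (0.0114%) in the 3 comparisons, while 657, 862 and 656 had an unadjusted p under 0.05. Without the fat libraries, Igfbp1 was called for DR-AL against DR with a log2 difference of 3.16 (edgeR, adjusted p = 0.011), a value that only the liver can carry since the colon and brain libraries held at most 2 counts each.

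In the liver, the clearest difference was in Igfbp1. Igfbp1 stood at 112 CPM in AL, 25.8 CPM in DR and 247 CPM in DR-AL, on 2772, 562 and 6061 counts. The DR library was the lowest and the DR-AL library the highest. Igfbp1 was 4.34-fold lower in DR than in AL (log2 fold change -2.12, interval -2.25 to -1.99) and 2.21-fold higher in DR-AL than in AL (1.14, interval 1.08 to 1.21). The span between DR and DR-AL was 9.58-fold (3.26, interval 3.14 to 3.39). Only this last difference was called when the spread was estimated over the 3 liver libraries without regard to diet, a coefficient of variation of 0.312 (edgeR exact test, adjusted p = 0.0012).

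Igf1 in the liver was not called between DR and AL. Igf1 was 817 CPM in AL, 825 CPM in DR and 578 CPM in DR-AL, so the AL and DR libraries lay together and DR-AL below them. The log2 fold change of Igf1 was 0.01 in DR (interval -0.01 to 0.04), or -0.07 with DESeq size factors, and -0.50 in DR-AL (interval -0.53 to -0.47). Ghr showed the same order, at 556, 511 and 337 CPM. The log2 fold change of Ghr was -0.12 in DR, under the size for a call, and -0.72 in DR-AL (interval -0.76 to -0.68).

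Igfals, which holds IGF-1 in the circulating complex, was 131 CPM in AL, 106 CPM in DR and 64.8 CPM in DR-AL. Igfals was 2.02-fold lower in DR-AL than in AL (log2 fold change -1.02, interval -1.10 to -0.93). In DR its log2 fold change was -0.31 (interval -0.39 to -0.23), just under the fold used for a call, and with DESeq size factors it was -0.40 and was called. Igf1, Ghr and Igfals, together with Igfbp4, were thus the 4 members lower in the DR-AL liver. Igfbp4 stood at 1959, 1737 and 1443 CPM in the 3 diets, with a log2 fold change of -0.17 in DR, not called, and -0.44 in DR-AL.

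Igfbp3, which carries most of the IGF-1 in blood, went the other way. Igfbp3 was 13.5 CPM in the AL liver, 18.4 CPM in DR and 24.8 CPM in DR-AL, and its log2 fold changes were 0.44 (interval 0.23 to 0.65) and 0.87 (interval 0.68 to 1.07). In liver Igfbp3 is made mainly by cells other than hepatocytes. Hepatic stellate markers summed to 409, 465 and 642 CPM over the same libraries, with 1 of 6 called higher in DR and 3 of 6 higher and 1 lower in DR-AL, and fibroblast markers to 215, 212 and 342 CPM, with 1 of 8 higher and 1 lower in DR and 2 higher and 2 lower in DR-AL. Kupffer cell and macrophage markers summed to 189, 168 and 151 CPM, with 1 of 8 higher and 3 lower in DR and 5 lower in DR-AL. Their part in the result was not tested.

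Igfbp2 in the liver followed Igfbp1 with a smaller range. Igfbp2 was 926 CPM in AL, 739 CPM in DR and 1101 CPM in DR-AL. It was called lower in DR (log2 fold change -0.32) and higher in DR-AL than in DR (0.58), while its 0.25 between DR-AL and AL was under the size for a call. The call in DR was lost with totals that left out the 10 most abundant genes (-0.30). Socs2, at 20.3, 16.5 and 22.2 CPM, was called only between DR-AL and DR (0.42, interval 0.23 to 0.62), a call lost with FPKM at a pseudocount of 1 (0.29). Stat5b at 41.3, 34.4 and 36.6 CPM and Igf1r at 1.94, 2.34 and 2.0 CPM were not called in any of the comparisons. With DESeq size factors, Socs2 (-0.38) and Stat5b (-0.35) were also called lower in the DR liver.

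**Figure D3:**
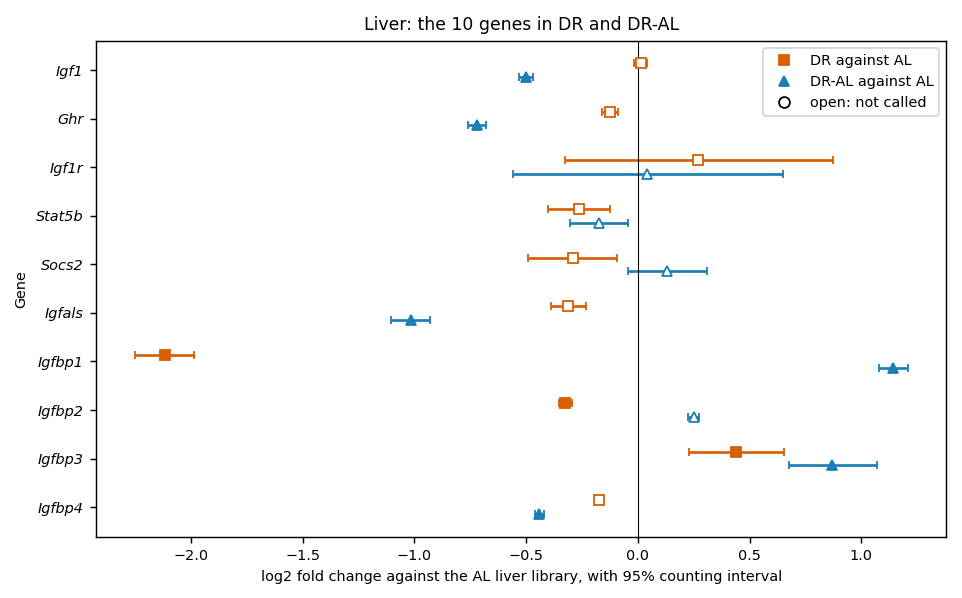
Log2 fold change of each gene in the liver for DR (squares) and DR-AL (triangles) against AL, with 95% intervals that cover counting error only, and open symbols for values not called. Igfbp1 lies at -2.12 in DR and 1.14 in DR-AL, Igf1 at 0.01 and -0.50, and the intervals of Igf1r, on between 48 and 51 counts, are the widest.

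Over the 10 members, the median log2 fold change in the liver was -0.22 in DR and -0.06 in DR-AL against AL, beside medians of 0.10 and 0 over all genes tested. Of 49 further genes of the axis, on 51 loci of which 41 were tested in the liver, 5 were higher and 3 lower in DR, beside 18.0% and 9.92% of all genes tested, and 7 were higher and 7 lower in DR-AL, beside 15% and 15.8%. Igfbp5, a binding protein held in the extracellular matrix, rose from 6.75 CPM to 13.1 CPM in DR (log2 fold change 0.96) and 31.9 CPM in DR-AL (2.24). Socs3, the cytokine-induced relative of Socs2, fell from 5.66 CPM to 3.72 CPM in DR (-0.60) and rose to 8.33 CPM in DR-AL (0.56), the order that Igfbp1 also had.

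Fat showed the most calls against AL, beside 35.2% of all genes higher and 10.4% lower in DR, and 46.0% and 11.9% in DR-AL. Igfbp1 stood at 21.1 CPM in AL, 1.66 CPM in DR and 1.90 CPM in DR-AL, and Igfbp2 at 90.7, 7.45 and 7.09 CPM. In both genes the AL library was above the others, 12.6-fold and 11.0-fold for Igfbp1 and 12.2-fold and 12.8-fold for Igfbp2. The hepatocyte markers fell beside them, 13 of the 14 read there in DR and all 14 in DR-AL. Set against the liver of the same diet, Igfbp1 was at 18.9%, 6.45% and 0.768% of the liver level in AL, DR and DR-AL, and Igfbp2 at 9.80%, 1.01% and 0.644%. In the AL fat library the 14 hepatocyte markers read in the liver spanned 8.16% to 55.2% of their liver level, a range that holds both genes. In DR and DR-AL their medians were 0.139% and 0.0213%, below both genes. The part of liver RNA in these values was not tested.

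**Figure D4:**
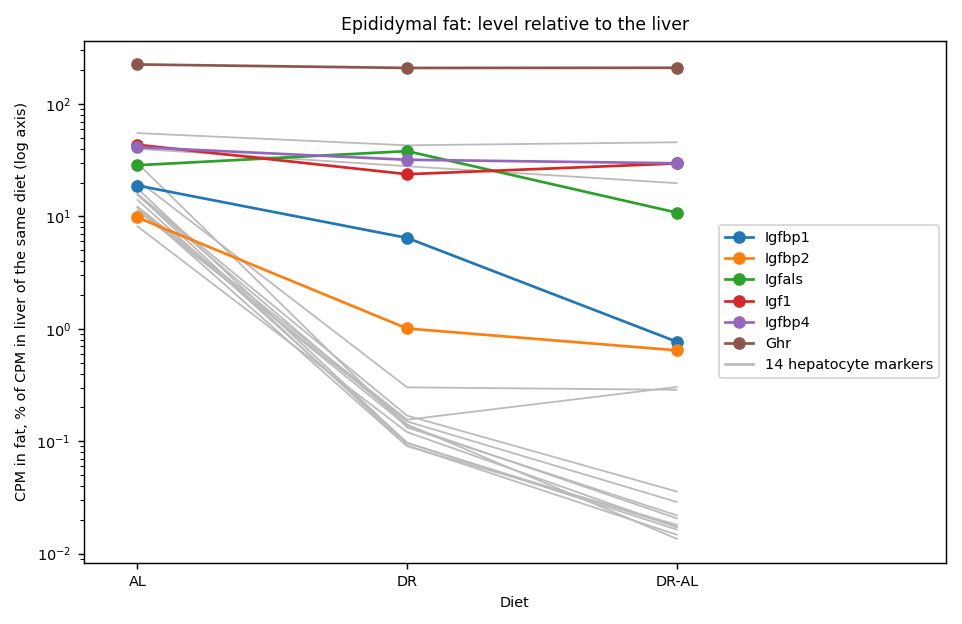
CPM in fat as a percentage of CPM in the liver of the same diet (log axis), with 6 genes of the axis in colour and the 14 hepatocyte markers read in the liver as grey lines. In AL, Igfbp1 (18.9%) and Igfbp2 (9.80%) lie within the markers, whose median then drops to 0.139% in DR and 0.0213% in DR-AL, while Ghr stays above 200%. The 2 grey lines that stay high are Cyp2e1 and Trf.

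Ghr, the most abundant member in fat by CPM, was 1253 CPM in AL, 1071 CPM in DR and 710 CPM in DR-AL. The log2 fold change of Ghr in fat was -0.23 in DR, not called, and -0.82 in DR-AL (interval -0.84 to -0.79). In DR Ghr was called lower with DESeq size factors (-0.41) and with the deposited FPKM at a pseudocount of 1 (-0.94). Ghr was more than 200% of the liver level in each diet, at 225%, 210% and 210%. The adipocyte markers summed to 57886, 44063 and 34744 CPM over the same libraries. Of their 10 loci, 5 were lower and 1 higher in DR, and 7 were lower and 1 higher in DR-AL. Their part in the result was not tested.

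Igf1 in fat fell from 355 CPM in AL to 196 CPM in DR and 171 CPM in DR-AL, and its log2 fold changes were -0.86 (interval -0.91 to -0.80) and -1.05 (interval -1.10 to -1.0). Igfbp4 fell from 810 CPM to 555 CPM and 429 CPM, with log2 fold changes of -0.55 and -0.92. Igf1 and Igfbp4 were at 43.5% and 41.4% of the liver level in AL fat. Among the hepatocyte markers, which spanned 8.16% to 55.2% there, only Cyp2e1 (55.2%) was higher, and Trf was at 40.0%. The next highest marker was Cps1 at 29.8%, below both genes. Cyp2e1 stayed at 43.0% in DR fat and 45.8% in DR-AL fat, and Trf at 28.0% and 19.8%. The other markers read were at most 0.304% in those libraries. The part of liver RNA in Igf1 and Igfbp4 was not tested. In DR and DR-AL fat, Igf1 was at 23.8% and 29.6% of the liver level and Igfbp4 at 32.0% and 29.8%. Igfals parted from them. Igfals was 37.5 CPM in AL, 40.3 CPM in DR and 7.02 CPM in DR-AL, so the difference of DR from AL was not called (0.11, interval -0.03 to 0.24, or -0.08 with DESeq size factors) and DR-AL was 5.33-fold lower (-2.41, interval -2.65 to -2.19). In DR fat, where the hepatocyte markers were at a median of 0.139%, Igfals stood at 38.2% of its liver level.

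The members called higher in fat were Igf1r and Igfbp3. Igf1r was 30.02, 42.2 and 62.7 CPM, with log2 fold changes of 0.49 and 1.06, and Igfbp3 was 21.2, 43.8 and 44.9 CPM, with 1.05 and 1.08. Testis germ cell markers summed to 5.26, 585 and 2826 CPM in the same libraries, and epididymal markers to 918, 3395 and 5480 CPM. Between DR-AL and DR, 4 of the 8 epididymal markers were called higher and 4 lower. The part of these markers' cells in the result was not tested. The median of all genes in fat was itself shifted, by 0.23 in DR and 0.39 in DR-AL, against 0.04 and 0.06 with DESeq size factors. Igf1r in DR was not called with those size factors (0.30). With the deposited FPKM, which shift the median gene by -0.24 and -0.60 at a pseudocount of 1, Igf1r was lower in both (-0.20 and -0.37) and Igfbp3 was lower in DR-AL (-0.41). Igfbp3 in DR was 0.28 with FPKM, and its call was lost. The direction of Igf1r in both diets and of Igfbp3 in DR-AL therefore depended on the scaling, while Igf1, Igfbp1, Igfbp2 and Igfbp4 were called lower under each scaling. The spread estimated over the fat libraries without regard to diet was a coefficient of variation of 0.758. With that spread (edgeR exact test), no member was called in fat in DR or DR-AL against AL.

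Socs2 at 18.5, 15.6 and 14.8 CPM and Stat5b at 71.7, 63.5 and 63.7 CPM were not called in fat. Both were called lower with DESeq size factors, Socs2 at -0.43 in DR and -0.66 in DR-AL and Stat5b at -0.36 and -0.51. The members' median log2 fold change in fat was -0.24 in DR and -0.87 in DR-AL. Of the 49 further genes, 12 of 49 loci tested were higher and 5 lower in DR, beside 35.2% and 10.4% of all genes, and 13 were higher and 10 lower in DR-AL, beside 46.0% and 11.9%.

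Among these genes, the insulin receptor Insr was lower in fat in both diets, at 225 CPM in AL, 150 CPM in DR (log2 fold change -0.58) and 171 CPM in DR-AL (-0.39). Pik3cb, a catalytic subunit of PI3 kinase, was also lower in both (-0.55 and -0.50). Stc1, an inhibitor of the IGFBP4 protease PAPP-A, was higher in both, at 4.39, 13.3 and 24.1 CPM (1.59 and 2.45). Its relative Stc2 (0.41 and -0.79) and the regulatory subunit Pik3r1 (0.99 and -0.77) were higher in DR and lower in DR-AL. Smooth muscle markers summed to 1323, 3743 and 1280 CPM in the same libraries, and their part was not tested.

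In the hypothalamus, the largest differences were in Igfbp2. Igfbp2 was 7.82 CPM in AL, 22.5 CPM in DR and 4.17 CPM in DR-AL, on 232, 738 and 130 counts. Igfbp2 was 2.88-fold higher in DR than in AL (log2 fold change 1.53, interval 1.31 to 1.75) and 1.87-fold lower in DR-AL (-0.91, interval -1.23 to -0.59). The rise in DR and the 5.39-fold difference between DR and DR-AL were the hypothalamic calls kept when the spread was estimated without regard to diet (edgeR exact test, adjusted p = 2.6e-05 and 1.3e-13). Igfbp4 followed the same order at 11.7, 16.6 and 9.55 CPM, called in DR (0.50, interval 0.30 to 0.70) and not in DR-AL (-0.30).

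Genes of the meninges, the membranes around the brain, followed that order too. Meningeal markers summed to 37.0 CPM in AL, 89.5 CPM in DR and 12.9 CPM in DR-AL, and 5 of 6 were called higher in DR and 5 of 6 lower in DR-AL. Fibroblast markers summed to 147, 186 and 115 CPM, with 6 of 8 higher and 1 lower in DR and 6 of 8 lower in DR-AL. Igf2, the second IGF ligand and a gene expressed by the meninges and choroid plexus, was 66.6 CPM in AL, 177 CPM in DR (log2 fold change 1.41) and 27.8 CPM in DR-AL (-1.26). The part of meningeal RNA in these values was not tested.

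**Figure D5:**
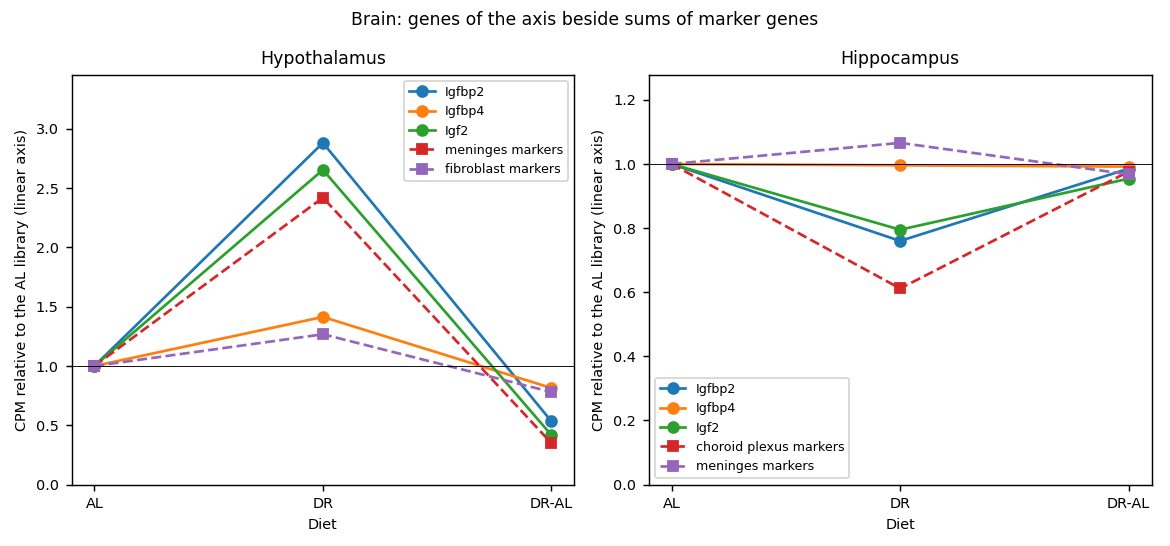
CPM relative to the AL library (linear axis) in hypothalamus and hippocampus for Igfbp2, Igfbp4 and Igf2 (circles, solid lines) and for the summed CPM of marker genes (squares, dashed lines). In the hypothalamus Igfbp2 (2.88), Igf2 (2.65) and the meningeal markers (2.42) rise together in DR and lie below 1 in DR-AL, and in the hippocampus Igfbp2 (0.760), Igf2 (0.795) and the choroid plexus markers (0.612) are lower in DR.

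Igf1 and Ghr in the hypothalamus each had an order over the diets that differed from that of the meningeal markers. Igf1 shared the markers' direction in DR against AL, and Ghr shared it in DR-AL against AL. The part of meningeal RNA in Igf1 and Ghr was not tested. Igf1 was 3.64 CPM in AL, 5.01 CPM in DR and 6.76 CPM in DR-AL, and its log2 fold changes were 0.46 (interval 0.10 to 0.82, Z test adjusted p = 0.046) and 0.89 (interval 0.55 to 1.24). The call in DR was lost with DESeq size factors (Z test adjusted p = 0.052), and both calls were lost with FPKM at a pseudocount of 1 (0.11 and 0.31). Ghr was 48.7, 35.1 and 29.8 CPM, lower in DR (-0.47, interval -0.58 to -0.36) and in DR-AL (-0.71, interval -0.83 to -0.59). Ligand and growth hormone receptor thus moved in opposite directions here.

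Igfbp3 was called lower in the DR-AL hypothalamus (-0.34), at 17.8, 18.3 and 14.04 CPM, a call lost with DESeq size factors (-0.31). Igf1r at 55.9, 62.2 and 64.1 CPM, Stat5b at 94.1, 87.8 and 86.0 CPM and Socs2 at 5.63, 6.44 and 4.94 CPM were not called against AL. Igfbp1 and Igfals held at most 3 counts a library. Over the 8 other members, the median log2 fold change was 0.17 in DR and -0.24 in DR-AL, beside 0.01 and -0.03 over all genes tested.

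RNA of the hypothalamic hormones that set growth hormone release was lower in the DR and DR-AL libraries than in AL. Ghrh, which stimulates release, was 17.2 CPM in AL, 7.85 CPM in DR (log2 fold change -1.13) and 6.02 CPM in DR-AL (-1.51). Sst, which inhibits it, was 216, 156 and 128 CPM (-0.47 and -0.76). Sst RNA was not particular to the hypothalamus, since the hippocampus held 223, 238 and 265 CPM in AL, DR and DR-AL. Gh itself, a gene of the pituitary, was read at 88, 224 and 18 counts, higher in DR (1.2) and lower in DR-AL (-2.33). The hypothalamic markers summed to 1209, 1001 and 916 CPM over the same libraries, with 3 of 11 loci higher and 4 lower in DR and 3 higher and 6 lower in DR-AL, and colon epithelium markers to 28.2, 7.48 and 6.15 CPM, and the part of dissection in these values was not tested.

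Further genes of the axis in the hypothalamus numbered 10 higher and 4 lower in DR of 49 loci tested, beside 4.33% and 2.72% of all genes. In DR-AL 4 were higher and 13 lower, beside 6.06% and 9.02%. Stat5a, the partner of Stat5b, was 10.3, 8.0 and 5.38 CPM (-0.37 and -0.94). The insulin receptor substrate Irs4 was 264, 187 and 148 CPM (-0.49 and -0.84), while Irs1 was 19.4, 25.9 and 24.5 CPM, higher in both (0.41 and 0.33).

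The hippocampus, like the colon, had 1 member called in each comparison with AL. Igfbp2 was 48.8 CPM in AL, 37.1 CPM in DR and 48.1 CPM in DR-AL, with a log2 fold change of -0.40 in DR (interval -0.50 to -0.29) and -0.02 in DR-AL. The choroid plexus markers, genes of the epithelium that makes cerebrospinal fluid, summed to 2952, 1806 and 2882 CPM. All 8 of them were called lower in DR and none in DR-AL, and their part in the result was not tested. Igf2 was also lower in DR (-0.33). Igfbp3 was 19.2, 22.5 and 26.8 CPM, called in DR-AL (0.49, interval 0.33 to 0.64) and, with FPKM at a pseudocount of 1, also in DR (0.36). Ghr was called between DR-AL and DR (0.41), at 8.87 CPM in DR and 11.8 CPM in DR-AL.

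The other members of the hippocampus kept close levels. Igfbp4 was 79.8, 79.5 and 79.1 CPM, with intervals of the log2 fold change from -0.08 to 0.07 in DR and from -0.09 to 0.07 in DR-AL. Igf1 was 11.5, 11.7 and 12.8 CPM. None of the 49 further genes was higher in the DR hippocampus and 1 of 47 loci was lower, beside 1.36% and 2.67% of all genes. In DR-AL 8 were higher and 0 lower, beside 3.99% and 2.16%.

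In the colon, Ghr was 28.1 CPM in AL, 22.1 CPM in DR and 28.0 CPM in DR-AL, called lower in DR (log2 fold change -0.35, interval -0.50 to -0.20). Adipocyte markers in the colon had the same order, at 260.1, 210.1 and 247 CPM, with 7 of 10 loci lower in DR than in AL and 7 of 10 higher in DR-AL than in DR, and their part in the result was not tested. Igfbp2 was read at 20, 30 and 3 counts, and the DR-AL library was below AL (-2.49, interval -5.05 to -0.90) and below DR (-2.74, interval -5.26 to -1.22). Socs2, highest in this tissue, was 40.3, 35.0 and 33.9 CPM, with log2 fold changes of -0.20 and -0.25 that were under the size for a call. Igf1r at 12.1, 12 and 12.7 CPM and Stat5b at 21.2, 20.3 and 22.9 CPM were not called. Among the further genes, 3 of 47 loci were higher and 3 lower in DR, beside 9.04% and 10.6% of all genes, and 0 were higher and 4 lower in DR-AL, beside 5.83% and 8.50%. Irs2, a substrate of the insulin and IGF receptors, was lower in both at 114, 80.4 and 90.1 CPM (-0.50 and -0.34), and Socs3 likewise at 10.3, 7.09 and 7.35 CPM (-0.53 and -0.48).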

How the data were processed

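RNA-Seq was measured in 15 libraries. The authors deposited 1 table of counts (whole numbers per locus, not normalized) and FPKM values (scaled by transcript length and library, with the scaling between libraries not stated). According to the methods they trimmed reads, aligned them with Strand software to mm10, kept the strand and removed duplicates, while the submitters' processing notes list mm9 and DESeq2. The positions in the table overlap GRCm38 for 1 of 10 members, so coordinates are those of GENCODE M21. The members and the gene lists were chosen with earlier results of these data known.

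The study's Z test was applied to counts divided by the total on named loci (square roots, Poisson variance), for genes with at least 1 count in the 3 libraries of a tissue. Log2 fold changes used a pseudocount of 0.5 on counts scaled to the mean total, with exact Clopper-Pearson intervals at 95%. Shared effects were fitted with edgeR 4.0.16 and DESeq2 1.42.0 in R 4.3.3. Further genes named were those called in both DR and DR-AL against AL in a tissue with a mean of at least 100 counts, with Igf2, Gh, Ghrh and Sst, and 1 gene that met this rule is not reported here. Likeness used the 3 genes of highest Pearson r of log2(CPM + 0.5). The tests were tested on simulated data. Alternatives were another scaling, filter, fold or dispersion, FPKM with pseudocounts of 0.1 and 1, and left-out tissues. Library totals without TMM and the counts without fat were chosen after seeing the data.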

Additional observations from a re-analysis of the deposited data

Results flagged for a closer look

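Members called in opposite directions in different tissues are given here as values, and the differences between tissues were not tested. For DR against AL, the log2 fold change of Igf1 was -0.86 in fat and 0.46 in the hypothalamus. That of Igfbp2 was -0.32 in the liver, -3.60 in fat and -0.40 in the hippocampus against 1.53 in the hypothalamus, and that of Igfbp4 was -0.55 in fat and 0.50 in the hypothalamus. For DR-AL against AL, Igf1 stood at -0.50 in the liver and -1.05 in fat against 0.89 in the hypothalamus. Igfbp1 stood at 1.14 in the liver and -3.46 in fat. Igfbp3 stood at 0.87 in the liver, 1.08 in fat and 0.49 in the hippocampus against -0.34 in the hypothalamus.

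For DR-AL against DR, Ghr stood at -0.60 in the liver and -0.59 in fat against 0.34 in the colon and 0.41 in the hippocampus. Igf1 was lower in the liver (-0.51) and higher in the hypothalamus (0.43). Igfbp2 was higher in the liver (0.58) and hippocampus (0.37) and lower in the colon (-2.74) and hypothalamus (-2.43). Igfbp3 at 0.43 and Socs2 at 0.42 were higher in the liver, while in the hypothalamus Igfbp3 at -0.38 and Socs2 at -0.38 were lower.

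The second Igf1 locus, on the minus strand, is not part of the comparisons. It held 45, 39 and 65 counts in the AL, DR and DR-AL liver and 210, 128 and 142 counts in fat, above the 3 counts that a count of 0 allows, and at most 1 count in each colon and brain library. It took 0.222%, 0.217% and 0.457% of the Igf1 counts in the liver and 2.21%, 2.78% and 2.94% in fat. GENCODE annotates the antisense gene Igf1os over Igf1, and the table gives this locus the symbol Igf1.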

How the results depend on the processing

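No paired analysis was possible because each tissue and diet has 1 library and the labels give no replicate numbers, so diets within a tissue have no pairs. The tissue comparisons were fitted with diet as a term. The counts of members called depended most on the fold and on the error allowed between libraries. For DR against AL, 15 calls became 5 with a fold of at least 2, 7 with a coefficient of variation of 0.1, 1 with the estimated dispersion and 9 without fat. For DR-AL against AL, 20 became 9 with a fold of at least 2, 0 with the estimated dispersion and 12 without fat. For DR-AL against DR, 20 became 4 with a fold of at least 2, 10 with a coefficient of variation of 0.1 and 3 with the estimated dispersion. The share higher moved with the scaling. With FPKM at a pseudocount of 1, 4 of 18, 3 of 20 and 5 of 15 calls were higher, against 6 of 15, 6 of 20 and 9 of 20. Over all genes in fat, calls moved from 7183 higher and 2113 lower to 2088 and 5453 in DR against AL. For DR-AL against AL in fat, 9384 and 2418 became 2426 and 8481, and for DR-AL against DR, 7816 and 2701 became 1937 and 6148. All genes in the hippocampus moved the other way, from 256 higher and 502 lower to 389 and 110 in DR against AL. The cause was not tested.

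In fat, FPKM turned Igf1r from higher to lower at pseudocounts of 0.1 and 1, to -0.28 and -0.20 in DR against AL, -0.52 and -0.37 in DR-AL against AL and -0.24 and -0.16 in DR-AL against DR. Igfbp3 in DR-AL against AL turned to -0.46 and -0.41. Stat5b in the liver against the other tissues turned to -0.11 with library totals. With 1 tissue left out, members changed over the tissues ranged from 0 to 1 for DR-AL against DR, where Igfbp1 was called without fat, and stayed at 0 for the other diet comparisons. Members differing stayed at 10 for the liver and ranged from 5 to 8 between the brain regions. Genes at a few counts, Igfbp1 outside liver and fat and Igfals in the brain, cannot be compared at this depth.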
